A study of Sus scrofa with 8 samples.

Results

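The leukocyte actin regulators described here are 10 genes, CAPG, GMFG, CORO1A, ARPC1B, LCP1, PFN1, CFL1, WAS, ARHGDIB and MARCKS, of 18103 genes listed in a liver transcriptome of the pig. They were taken by symbol as actin regulators enriched in leukocytes, and they were selected on the FPKM contrast of Control and Steatosis, which was known when the set was drawn up, so that contrast is given for them as a description. Members past the limits used for all genes are counted, but no p-value is given for a member and the counts support nothing. FPKM is the number of fragments scaled to transcript length and to the mapped fragments of the library, a level per length that can be compared between genes. All 10 were among the 13175 genes tested, those that reached 0.3 FPKM in 4 or more of the 8 libraries.

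Hepatic RNA came from male pigs of the Landrace x Large White cross. The Control group was the initial state, at 4 months of age, labelled healthy and sampled by biopsy. The Steatosis group was the same animals at 6 months of age, after 2 months on a steatotic diet high in saturated fat, fructose, cholesterol and cholate and poor in choline and methionine, sampled after euthanasia. Each group had 4 libraries, and each library was a pool of RNA from 2 pigs, so every SD below is between pools. Since there was no group of older pigs without the diet, the effects of diet, age and way of sampling cannot be told apart.

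Actin filaments grow by adding monomers at the barbed end, branch through the Arp2/3 complex and are cut and recycled by severing proteins. Leukocytes depend on this cycle to crawl, to engulf particles and to form contacts with other cells, and they carry their own versions of several of its proteins, such as the WAS nucleation promoter, the plastin LCP1, coronin 1A and glia maturation factor gamma. PFN1 and CFL1, in contrast, are general actin proteins of almost all cells, hepatocytes included. The libraries are whole liver, in which more cells of a type and more RNA per cell cannot be told apart.

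Of the Control libraries, 3 stood apart from the others of their group. Control pool 1 held skeletal muscle transcripts (7 markers summing to 1218 FPKM, against 7.72 to 11.6 in the other Control pools and 5.54 to 7.02 in Steatosis), and Control pool 3 had the highest red cell marker sum (1303 FPKM, against 263.5 to 557.4 in the other Control pools and 137.9 to 430.6 in Steatosis). Control pools 3 and 4 held traces of muscle transcripts too. There CKM was at 1.46 and 4.38 FPKM, against 0.18 in Control pool 2 and 0.00 to 0.26 in Steatosis. Control pool 4 had the highest hepatocyte marker sum (85705 FPKM, against 54065 to 58962 in the other Control pools) and the lowest median ratio (0.807, against 0.907 to 0.991). Most of the difference in that sum lay in ALB (71003 FPKM, against 41268 to 45743 in the other Control pools). APOA1 was also highest in Control pool 4, but the other hepatocyte markers were not. The libraries also differed in scale between groups. Over all tested genes the log2 fold change had a median of 0.25 with FPKM as deposited, of -0.01 after scaling by the median ratio and of 0.03 after upper quartile scaling, so that a log2 fold change near 0.25 is at the centre of all genes.

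The members did not move as a block. Against Control, CAPG, GMFG, LCP1 and ARPC1B were higher in Steatosis by 2.01 to 6.24 times in mean FPKM, MARCKS, WAS and CFL1 by 1.34 to 1.58 times, and ARHGDIB, PFN1 and CORO1A by 1.14 to 1.18 times with overlapping groups. The median log2 fold change of the 10 was 0.63 (range 0.23 to 2.61), against 0.25 over all tested genes. A gene was called where a limma fit of log2(FPKM + 0.1) over all tested genes gave it a Benjamini-Hochberg adjusted p under 0.01 together with a log2 fold change above 1 or below -1. By these limits 4 members were called higher, where 6.01% of all tested genes were called higher, and 0 members were called lower, also at an unadjusted p under 0.05, where 0.334% of all tested genes were called lower. With an adjusted p under 0.05 and no limit on the fold, 7 members were called higher, where 26.7% of all tested genes were. In 7 members every Steatosis pool lay above every Control pool, which held for 29.6% of all tested genes. These shares come from the contrast used to select the members and nothing is read from them.

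**Figure D1:**
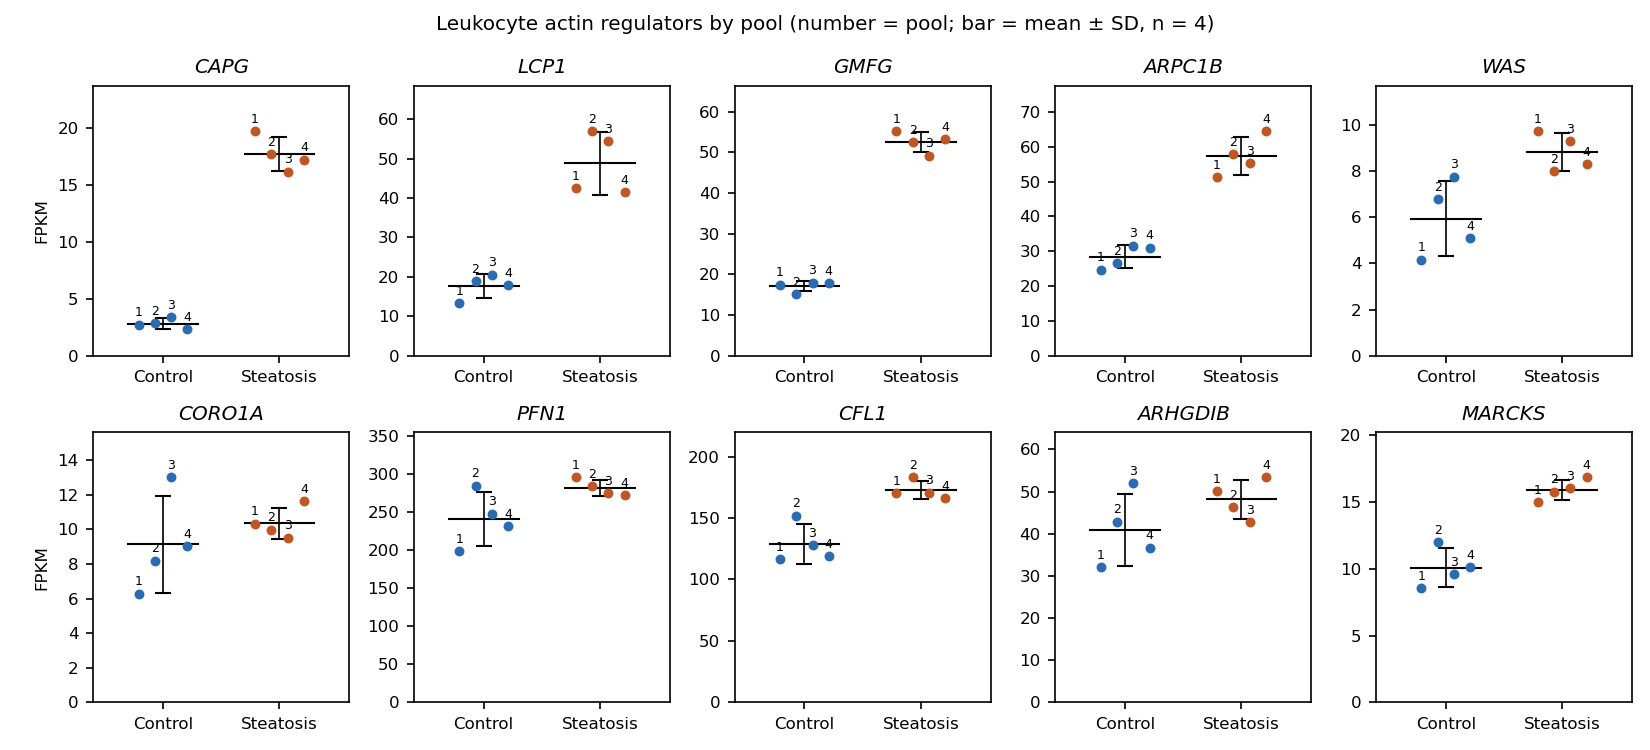
FPKM (linear axis from 0) of the 10 leukocyte actin regulators in each of the 8 liver pools, with pool numbers, the mean and the SD (n = 4 pools per group). CAPG, LCP1, GMFG and ARPC1B are separated widely between groups, whereas in CORO1A, PFN1 and ARHGDIB the Control pools spread over the Steatosis values.

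The order of levels was not the same in both groups. In Control, PFN1 (mean 240.8 FPKM) and CFL1 (128.8) led, followed by ARHGDIB (40.9), ARPC1B (28.5), LCP1 (17.7), GMFG (17.1), MARCKS (10.1), CORO1A (9.13), WAS (5.94) and CAPG (2.84). The pools of LCP1 and GMFG, of MARCKS and CORO1A, and of CORO1A and WAS overlapped, so these neighbours could not be ordered. In Steatosis, PFN1 (281.6) and CFL1 (172.5) again led, ARPC1B (57.3), GMFG (52.5), LCP1 (48.9) and ARHGDIB (48.1) followed, each overlapping with the next, and CAPG (17.7) stood level with MARCKS (15.9), with overlapping pools, above CORO1A (10.4) and WAS (8.81), which also overlapped. CAPG moved from rank 8214 to rank 2851 of the 13175 tested genes, GMFG from 2603 to 1066 and LCP1 from 2537 to 1143, while PFN1 went from 287 to 279 and CORO1A from 4240 to 4340.

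CAPG is a gelsolin-related protein that caps the barbed end of filaments without cutting them, and was first known from macrophages. The gene (ID 100519653) spans chromosome 3 from 59335483 to 59366855 in Sscrofa11.1. It was at 2.73, 2.87, 3.42 and 2.33 FPKM in Control pools 1 to 4 and at 19.7, 17.7, 16.2 and 17.2 FPKM in Steatosis pools 1 to 4. No pool of one group came near the other, and the lowest Steatosis pool was well above the highest Control pool. Mean FPKM was 2.84 ± 0.451 (SD, n = 4) in Control and 17.7 ± 1.50 in Steatosis, 6.24 times higher, and the log2 fold change was 2.61 ± 0.13 (SE). This was the largest difference of the 10 members, and in the 15 alternative settings it stayed between 2.29 and 2.70.

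The gelsolin family of CAPG contained the 2 relatives that were called. VIL1 (villin, the bundler of epithelial microvilli) was at 0.92 to 1.37 FPKM in Control and 6.32 to 10.8 in Steatosis, and rose by 2.76 ± 0.19 on the log2 scale (limma adjusted p = 2.13e-05). SCIN (scinderin, a calcium-dependent severing protein) was at 0.15 to 1.03 FPKM in Control and 2.14 to 3.08 in Steatosis and rose by 2.48 ± 0.41 (adjusted p = 0.00228). In Control pools 3 and 4 SCIN was below 0.3 FPKM, and it was not tested where 0.3 FPKM was required in 7 libraries. The size of its rise depended on the pseudocount, being 1.35 with a pseudocount of 1. Markers of bile duct epithelium, a cell type with microvilli, summed to 4.06 to 19.9 FPKM in Control and 7.57 to 18.6 in Steatosis with 0 of 4 called by limma (2 of 4 had an unadjusted p under 0.05), and their part in the VIL1 result was not tested. FLII had a log2 fold change of 0.49 (adjusted p = 0.0184), AVIL of 0.34 (adjusted p = 0.0523) and SVIL of 0.16 (adjusted p = 0.634), and none of the last 3 was called. SVIL reversed to -0.11 under median ratio scaling, to -0.07 under upper quartile scaling and to -0.05 without Control pool 4. CAPG held 5.20 to 5.99% of the summed FPKM of CAPG, SCIN, VIL1, AVIL, FLII and SVIL in the Control pools and 18.2 to 23.4% in the Steatosis pools. Gelsolin itself was not analysed here and is not in this sum.

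LCP1, or L-plastin, bundles filaments in leukocytes, and it is called lymphocyte cytosolic protein 1 for that reason. It lies on chromosome 11 from 21126504 to 21223543 (ID 100156254). The Control pools 1 to 4 had 13.4, 18.9, 20.6 and 17.9 FPKM, and the Steatosis pools 42.5, 57.0, 54.4 and 41.5 FPKM. Both groups were spread, with Control pool 1 low and Steatosis pools 2 and 3 high, but they did not overlap. The means of 17.7 ± 3.09 and 48.9 ± 7.99 FPKM were 2.76 times apart, with a log2 fold change of 1.46 ± 0.16. Its relatives differed less, since PLS3 (the T-plastin of non-blood cells) had a log2 fold change of 0.53 (adjusted p = 0.0141) and PLS1 (I-plastin) of 0.33 (adjusted p = 0.104), neither of them called. LCP1 made up 45.0% ± 5.83 of plastin FPKM in Control and 62.1% ± 2.59 in Steatosis, and all Steatosis pools (59.9 to 65.6%) had a larger share than all Control pools (38.5 to 52.4%).

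**Figure D2:**
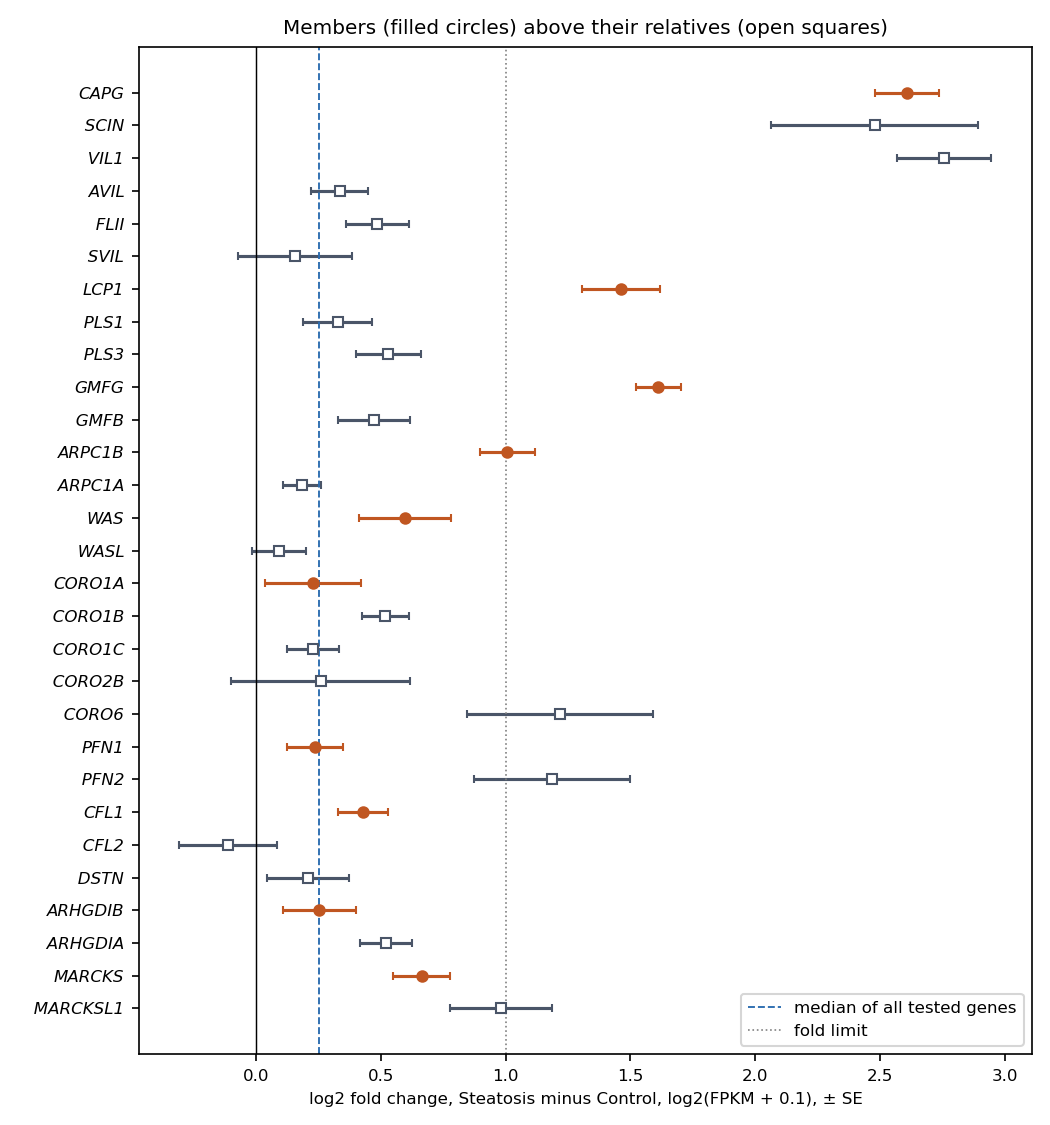
Log2 fold change (Steatosis minus Control, on log2(FPKM + 0.1), ± SE, 4 pools per group) of the 10 members as filled circles, each above its tested relatives as open squares. The dashed line is the median of all tested genes (0.25) and the dotted line the fold limit of 1. CAPG, SCIN and VIL1 lie to the right beyond 2, and CORO1A, PFN1 and ARHGDIB lie on the dashed line.

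WAS is the nucleation promoter of blood cells that switches on the Arp2/3 complex, and its loss causes the Wiskott-Aldrich syndrome. The gene is on chromosome X from 42774597 to 42793055 (ID 445527). WAS was at 4.16, 6.76, 7.75 and 5.08 FPKM in the Control pools and at 9.72, 7.97, 9.28 and 8.28 FPKM in the Steatosis pools. The groups were apart by a small gap only, between Control pool 3 and Steatosis pool 2. Mean FPKM was 5.94 ± 1.62 in Control and 8.81 ± 0.824 in Steatosis (1.48 times), and the log2 fold change of 0.60 ± 0.18 ranged from 0.33 to 0.74 in the alternative settings. WASL, the form found in most tissues, was nearly level at 8.39 and 8.89 FPKM (log2 fold change 0.09, adjusted p = 0.553), and its sign turned under median ratio (-0.18) and upper quartile (-0.14) scaling. The share of WAS in the sum of WAS and WASL was 33.2 to 46.6% in Control and 47.0 to 52.3% in Steatosis.

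ARPC1B is the isoform of the ARPC1 subunit of the Arp2/3 complex that blood cells rely on, and its loss in humans gives an immune and platelet defect. It lies on chromosome 3 from 6329737 to 6342641 (ID 100174964), where PDAP1 overlaps its span, and how reads of the shared stretch were divided was not tested. In Control it was at 24.7, 26.6, 31.6 and 31.1 FPKM, and in Steatosis at 51.4, 57.9, 55.4 and 64.5 FPKM. All Steatosis pools were far above all Control pools. Means were 28.5 ± 3.39 and 57.3 ± 5.52 FPKM, a ratio of 2.01, and with a log2 fold change of 1.01 ± 0.11 ARPC1B stood just over the fold limit. It was below that limit under median ratio scaling (0.73), upper quartile scaling (0.77), a pseudocount of 1 (0.98), without Control pool 1 (0.94), Control pool 2 (0.98) or Steatosis pool 4 (0.95), and without pool 1 of both groups (0.99).

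The other ARPC1 isoform, ARPC1A, was at 27.2 to 30.0 FPKM in Control and 32.1 to 33.7 in Steatosis, with a log2 fold change of 0.19 ± 0.08 (adjusted p = 0.0962) that turned to -0.09 and -0.05 under median ratio and upper quartile scaling. ARPC1B and ARPC1A were near-equal parts of the pair in Control (ARPC1B 49.6% ± 3.34) and unequal in Steatosis (63.5% ± 2.07), with no overlap of pools. The 7 remaining subunits had a median log2 fold change of 0.41, none was called, and 6 of the 7 had an adjusted p under 0.05 and also an unadjusted p under 0.05 in the limma fit. Over all tested genes, 6.01% were called higher, 26.7% were higher at an adjusted p under 0.05 and 41.9% had an unadjusted p under 0.05. ARPC2 (82.7 to 109.3 FPKM, log2 fold change 0.41, adjusted p = 0.00731) and ARPC3 (86.0 to 109.2 FPKM, 0.35, adjusted p = 0.0131) were the most abundant. ACTR3 (0.83) and ARPC5 (0.77) were nearest to ARPC1B, and ARPC5L had -0.05, 3 genes named after their values were seen.

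GMFG, glia maturation factor gamma, removes branches by detaching Arp2/3 from filaments and is the form of this protein in blood cells. Its locus is chromosome 6 from 47990241 to 47997332 (ID 100515973). The Control pools gave 17.5, 15.2, 18.0 and 17.8 FPKM, and the Steatosis pools 55.2, 52.4, 49.2 and 53.3 FPKM. Replicates were tight in both groups, apart from a low Control pool 2, and the groups were far apart. Means of 17.1 ± 1.30 and 52.5 ± 2.52 FPKM gave a ratio of 3.06 and a log2 fold change of 1.61 ± 0.09, the smallest SE of the 10. GMFB, the form of most other tissues, had 7.20 FPKM in Control and 9.96 in Steatosis, with overlapping pools (log2 fold change 0.47, adjusted p = 0.0334). GMFG was 70.4% ± 5.42 of the sum of both in Control and 84.0% ± 2.02 in Steatosis.

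CORO1A, coronin 1A, binds filaments and Arp2/3 in leukocytes and is needed for the survival of naive T cells. It is found on chromosome 3 from 18336813 to 18342381 (ID 100621483). Its Control pools had 6.28, 8.19, 13.0 and 9.04 FPKM and its Steatosis pools 10.3, 9.99, 9.53 and 11.6 FPKM. The highest value of all was Control pool 3 and the lowest was Control pool 1, and all Steatosis pools lay between these. Means were 9.13 ± 2.83 and 10.4 ± 0.897 FPKM, and the log2 fold change of 0.23 ± 0.19 changed sign under both scalings (-0.04 and -0.00), was 0.41 without Control pool 3 and was 0.07 without Control pool 1. Among the coronins measured, CORO1B, a form found in most tissues, had a log2 fold change of 0.52 (adjusted p = 0.00352), CORO1C of 0.23 (adjusted p = 0.126), CORO2B of 0.26 (adjusted p = 0.612) and CORO6 of 1.22 ± 0.37 (adjusted p = 0.035), and none was called. The CORO1C value turned to -0.04 and -0.00 under the 2 scalings, and the CORO2B value to -0.00 without Control pool 3. CORO1A held 21.1% ± 5.30 of coronin FPKM in Control and 17.0% ± 0.898 in Steatosis, with overlapping pools, CORO7 not being analysed here.

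PFN1, profilin 1, hands actin monomers to growing filaments and was the most abundant member. Its gene lies on chromosome 12 from 51962642 to 51965570 (ID 100512494). It was at 198.8, 284.9, 247.9 and 231.6 FPKM in Control and at 295.5, 284.1, 274.6 and 272.4 FPKM in Steatosis. Control pool 2 exceeded 3 of the 4 Steatosis pools, and Control pool 1 was the lowest of all 8. The means of 240.8 ± 35.8 and 281.6 ± 10.5 FPKM gave a log2 fold change of 0.24 ± 0.11, which was -0.04 under median ratio scaling and 0.00 under upper quartile scaling. PFN2, the brain-enriched profilin, was at 0.42 to 0.47 FPKM in Control pools 2 to 4 but at 1.31 in Control pool 1, and at 1.23 to 1.72 in Steatosis. Its log2 fold change of 1.19 ± 0.31 was not called (adjusted p = 0.0192), and became 1.53 (adjusted p = 0.000504), a call, without Control pool 1. PFN1 remained 99.7% of profilin FPKM in Control and 99.5% in Steatosis.

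CFL1, cofilin 1, severs old filaments and frees monomers. It is on chromosome 2 from 6471558 to 6475019 (ID 445532), and SNX32 overlaps its span, with the division of shared reads not tested. CFL1 was at 116.6, 152.1, 127.7 and 118.8 FPKM in Control and at 170.0, 183.0, 170.7 and 166.2 FPKM in Steatosis. The groups did not overlap, and pool 2 was the highest of both. Means of 128.8 ± 16.2 and 172.5 ± 7.28 FPKM gave a ratio of 1.34 and a log2 fold change of 0.43 ± 0.10, which was 0.16 and 0.19 under median ratio and upper quartile scaling. CFL2, the cofilin of muscle, had a log2 fold change of -0.11 (adjusted p = 0.692) that turned to 0.08 without Control pool 1, and DSTN (destrin) had 0.21 (adjusted p = 0.365) that turned to -0.07 and -0.03 under the 2 scalings. CFL1 made up 74.6% ± 4.94 of the family in Control and 78.3% ± 2.37 in Steatosis, with overlap.

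ARHGDIB is a GDP-dissociation inhibitor enriched in blood cells. It spans chromosome 5 from 57576754 to 57598395 (ID 100155466), a span overlapped by PDE6H and a long non-coding RNA gene, and the division of shared reads was not tested. Control pools had 32.1, 42.9, 51.9 and 36.7 FPKM and Steatosis pools had 50.2, 46.3, 42.8 and 53.3 FPKM. Control pool 3 exceeded 3 of the 4 Steatosis pools. Means were 40.9 ± 8.59 and 48.1 ± 4.59 FPKM, and the log2 fold change of 0.25 ± 0.15 became -0.02 under median ratio and 0.02 under upper quartile scaling. ARHGDIA, the form of most tissues, was at 47.7 to 65.5 FPKM in Control and 77.0 to 81.9 in Steatosis, with a log2 fold change of 0.52 ± 0.10 (adjusted p = 0.00538) that missed the fold limit. The share of ARHGDIB among the inhibitors was 42.3% ± 3.99 in Control and 37.8% ± 2.29 in Steatosis.

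MARCKS ties actin to the inner face of the plasma membrane and is released from it when protein kinase C phosphorylates it. It lies on chromosome 1 from 79789796 to 79795895 (ID 100517207). Its values were 8.52, 12, 9.58 and 10.1 FPKM in Control and 15.0, 15.8, 16.0 and 16.8 FPKM in Steatosis. All Steatosis pools were above all Control pools, and they differed little among themselves. Means of 10.1 ± 1.46 and 15.9 ± 0.759 FPKM were 1.58 times apart, with a log2 fold change of 0.66 ± 0.11 that was 0.39 and 0.43 under the 2 scalings. MARCKSL1, its smaller relative, was at 9.56 to 12.5 FPKM in Control and 15.5 to 31.1 in Steatosis, highest in pools 4 and 1, and its log2 fold change of 0.98 ± 0.20 (adjusted p = 0.00675) missed the fold limit, but became 1.13 (adjusted p = 0.00475), a call, without Steatosis pool 3. The bile duct marker sum (18.6 and 18.5 FPKM against 7.57 and 7.89) and the stellate cell marker sum (113.2 and 169.3 FPKM against 48.2 and 56.4) were also highest in Steatosis pools 1 and 4, and their part in the MARCKSL1 values was not tested. MARCKS was 48.2% ± 4.75 of the pair in Control and 42.9% ± 7.44 in Steatosis.

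**Figure D3:**
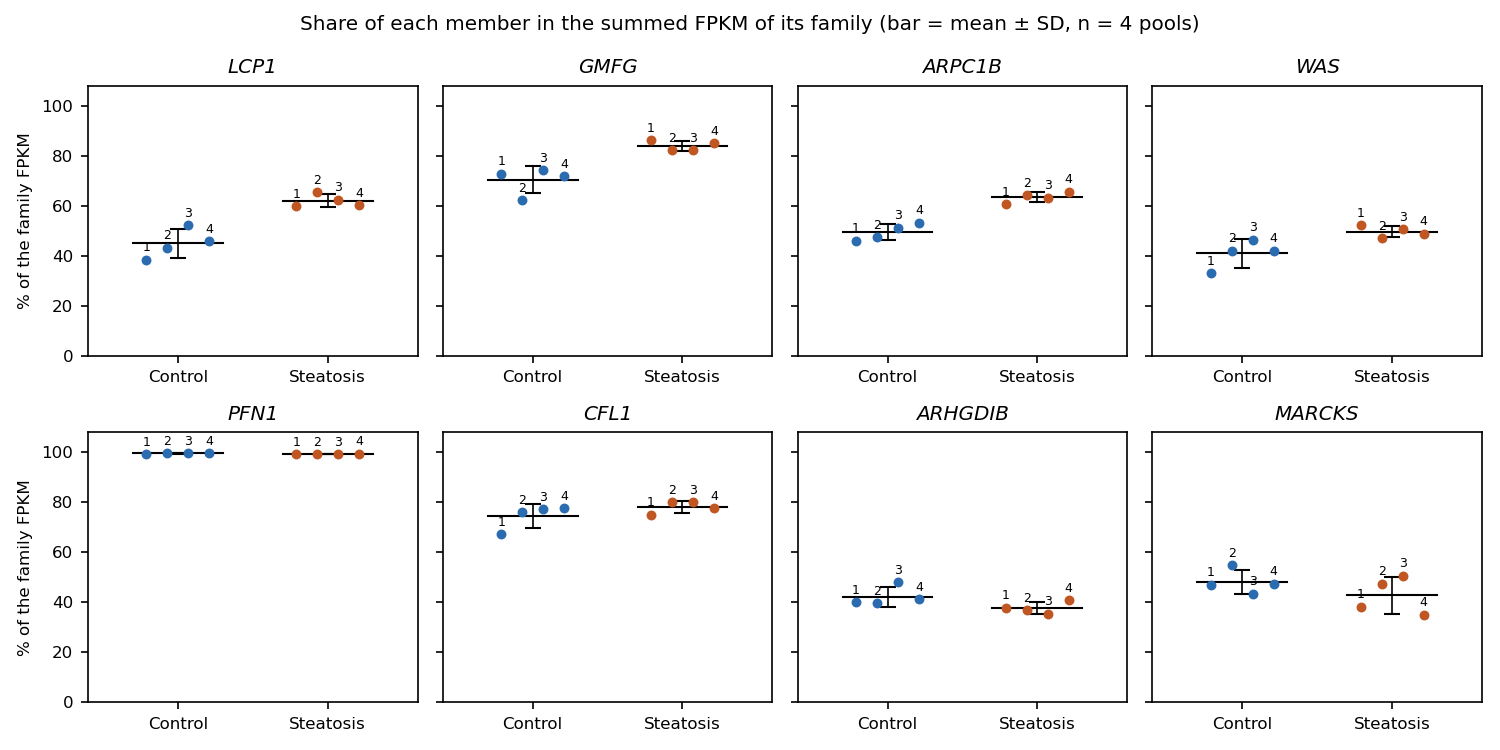
Share (%) of each of 8 members in the summed FPKM of its own family in each pool, with pool numbers, mean and SD (n = 4 pools per group). All Steatosis pools lie above all Control pools for LCP1, GMFG, ARPC1B and WAS (for example 62.1% against 45.0% for LCP1), whereas the pools overlap for PFN1, CFL1, ARHGDIB and MARCKS.

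The shares are ratios within a library and do not depend on its scale. For 5 members, CAPG, LCP1, GMFG, ARPC1B and WAS, all Steatosis pools had a larger share of the family than all Control pools, and for the other 5 the pools overlapped. These shares rest on the contrast used to select the members, no matching count was made over all genes, and nothing is read from them. As a group the relatives were 25 listed genes, of which 23 were in the table and 19 were tested. Of these, 2 were called higher (VIL1 and SCIN), where 6.01% of all tested genes were, and 10 were higher at an adjusted p under 0.05, where 26.7% were. A log2 fold change above 0 as deposited was found in 18 of the 19, as in 78.7% of all tested genes, and the median was 0.47.

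The actin genes around the members were described from lists of partners that, relatives included, comprised 116 genes in the table and 109 tested. Of the 109, 12 were called higher, against 6.01% of all tested genes, and 0 lower by limma, while 74 had an unadjusted p under 0.05 in either direction, as did 41.9% of all tested genes. At an adjusted p under 0.05 without a fold limit 61 were higher, where 26.7% of all tested genes were, and 1 was lower. The partner lists, relatives included, were chosen with earlier results of these data known, and nothing is read from these counts. The 12 were VIL1, SCIN, NCKAP1L, HCLS1, FMNL3, TWF2, COTL1, MYO1F, VAV1, ARHGEF2, ARHGAP25 and ARHGAP30. Under median ratio scaling, where 3.11% of all tested genes were called higher, the called partners were COTL1, MYO1F, SCIN and VIL1, and the same 4 were called under upper quartile scaling, where 3.34% were. The members called under either scaling were CAPG, GMFG and LCP1.

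Upstream of Arp2/3, 2 of 17 nucleation promoters were called, where 6.01% of all tested genes were called higher, and the list median was 0.32. HCLS1, the cortactin of blood cells, rose from 5.20 ± 0.436 to 11.2 ± 1.12 FPKM (log2 fold change 1.08, adjusted p = 0.000163). NCKAP1L, the blood cell subunit of the WAVE complex, rose from 4.17 ± 0.676 to 8.82 ± 0.985 FPKM (1.07, adjusted p = 0.000702), a call that was lost without Control pool 1 (0.97). The calls of HCLS1 and NCKAP1L were also lost under median ratio scaling, upper quartile scaling and a pseudocount of 1. The most abundant promoters that were not called were CTTN, the cortactin of most tissues, with 0.22 (adjusted p = 0.166), and BRK1, another WAVE subunit, with 0.13 (adjusted p = 0.361), and both values turned below 0 under median ratio (-0.05 and -0.15) and upper quartile (-0.01 and -0.11) scaling.

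Among 10 formins and Ena/VASP proteins, which elongate unbranched filaments, FMNL3 was the single call, from 2.09 ± 0.355 to 4.59 ± 0.332 FPKM (log2 fold change 1.11, adjusted p = 0.000598). Of all tested genes 6.01% were called higher. The FMNL3 call was lost under both scalings and with a pseudocount of 1. VASP, which protects barbed ends from capping, had 0.72 (adjusted p = 0.00233) and DIAPH1 0.32 (adjusted p = 0.0902). The turnover and capping list had a median of 0.78, with 2 of 15 called and 12 at an adjusted p under 0.05. Over all tested genes, 6.01% were called higher and 26.7% were higher at that adjusted p. COTL1, a cofilin-related filament binder, rose from 5.85 ± 1.31 to 14.6 ± 3.42 FPKM (1.30, adjusted p = 0.00153), and TWF2, a twinfilin, from 3.20 ± 0.414 to 7.52 ± 0.754 FPKM (1.21, adjusted p = 0.0002). The TWF2 call was lost under both scalings. The monomer-sequestering thymosins TMSB4X (437.8 to 810.2 FPKM, log2 fold change 0.89, adjusted p = 0.000135) and TMSB10 (493.6 to 972.1 FPKM, 0.99, adjusted p = 0.00101) were at much higher levels and just missed the fold limit. TMSB10 was called, at 1.01 to 1.11, without Control pool 2, Control pool 3, Steatosis pool 2 or Steatosis pool 3.

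In the list of bundling proteins, tropomyosins and myosins (1 of 14 called, median 0.69), MYO1F, a class I myosin of leukocytes, rose from 1.94 ± 0.466 to 5.17 ± 0.618 FPKM (log2 fold change 1.39, adjusted p = 0.000552). Of all tested genes 6.01% were called higher. TAGLN2 (0.44, adjusted p = 0.0143) and TPM3 (0.29, adjusted p = 0.0829) were not called, and both were highest among Control pools in pool 1.

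Actin itself did not pass the test. ACTB was at 305.4 to 420.8 FPKM in Control and 368.3 to 493.8 in Steatosis (log2 fold change 0.24, adjusted p = 0.206), and ACTG1 had 0.16 (adjusted p = 0.404). Both turned below 0 under median ratio scaling (-0.04 and -0.12), and ACTG1 under upper quartile scaling too (-0.08). The 1 partner below 0 at an adjusted p under 0.05 was ACTA1, the skeletal muscle actin, named here after its values were seen, at 1439 FPKM in Control pool 1, 0.49 to 10.5 in the other Control pools and 0.00 to 0.04 in Steatosis (adjusted p = 0.0211).

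**Figure D4:**
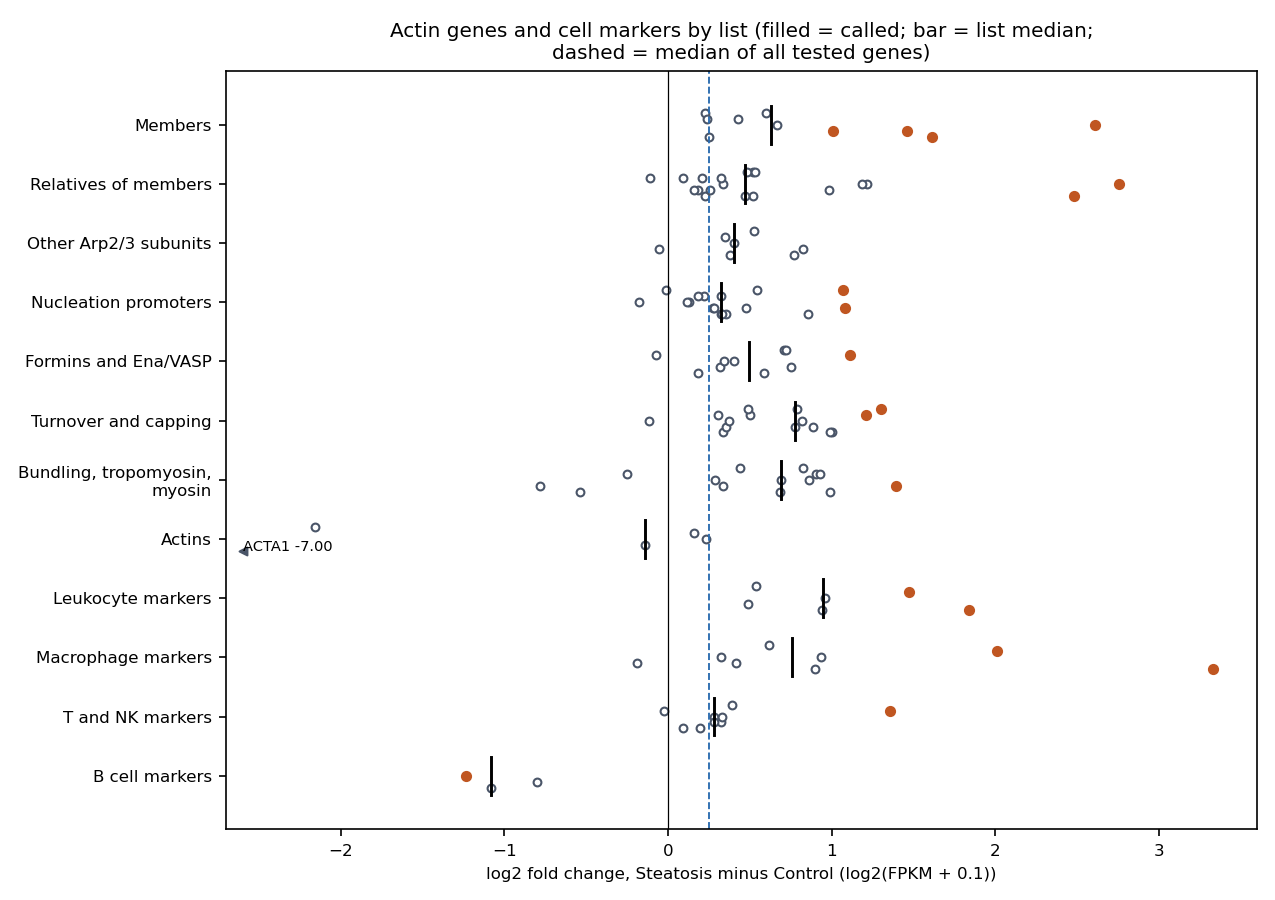
Log2 fold change (Steatosis minus Control, log2(FPKM + 0.1)) of each tested gene in the members, 7 partner lists and 4 lists of cell markers, filled where the gene was called, with the list median as a bar and the median of all tested genes (0.25) as a dashed line. The members (median 0.63) and the turnover and capping list (0.78) lie to the right of the dashed line, whereas the actins (-0.14) and the B cell markers (-1.08) lie to its left, and ACTA1 is drawn at the left edge with its value.

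The members varied more in Control than in Steatosis. The SD of log2(FPKM + 0.1) was larger in Control for all 10 (median 0.22 against 0.12), as it was for 73.6% of all tested genes (medians 0.25 and 0.16). In Control, pool 3 was the highest for 7 members (CAPG, GMFG, CORO1A, ARPC1B, LCP1, WAS and ARHGDIB) and pool 2 for the other 3 (PFN1, CFL1 and MARCKS), while pool 1 was the lowest for 8 members. In Steatosis no pool led in this way, pools 1 and 4 being the highest for 4 members each. Between pools of the same number the members were higher in Steatosis with 3 exceptions, CORO1A in pool 3 (log2 ratio -0.44), ARHGDIB in pool 3 (-0.28) and PFN1 in pool 2 (-0.00). Without Control pool 1 the median log2 fold change of the members was 0.52 and 3 were called, and without Control pool 3 it was 0.69 and 4 were called.

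Markers of leukocytes, macrophages, T and NK cells and neutrophils had a higher mean summed FPKM in Steatosis. So did those of endothelium (51.3 to 71.1 FPKM), stellate cells (61.1 to 96.8) and bile duct (9.5 to 13.1). Pools overlapped for stellate cells and bile duct. Most of the stellate difference lay in COL1A1 (18.9 to 37.5 FPKM) and COL1A2 (12.9 to 25.5), and DCN was level (19.9 to 20.1). LUM was lower (1.58 to 0.44), and PDGFRB and RGS5 were higher, these being named after their values were seen. By limma 0 of 6 stellate markers were called (3 of 6 had an unadjusted p under 0.05). Most of the T and NK difference (47.5 to 73.1 FPKM) lay in NKG7 (13.5 to 34.6). Most of the neutrophil difference (6.05 to 8.75 FPKM) lay in CSF3R (1.44 to 4.07). Mean sums of B cell, red cell and hepatocyte markers were lower, and those of platelets were level. The part of these cell types in the member values was not tested. The 6 leukocyte markers summed to 93.4 to 124.3 FPKM in Control and 236.1 to 291.6 in Steatosis, 2.44 times higher in the mean, and 2 of the 6 were called, SRGN (log2 fold change 1.84, adjusted p = 1.74e-05) and LAPTM5 (1.47, adjusted p = 9.35e-05). Beside the calls of each marker list stand 6.01% of all tested genes called higher and 0.334% called lower. PTPRC, the common leukocyte antigen and named after its values were seen, had a log2 fold change of 0.54 (adjusted p = 0.0305). PFN1 and CFL1 were higher in each pool than any of these 6 markers in any pool, the highest of which was SRGN at 110.1 FPKM.

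The 8 macrophage markers summed to 307.7 to 336.8 FPKM in Control and 423.8 to 489.6 in Steatosis, with 2 of 8 called. These were MARCO, a scavenger receptor (5.87 to 63.3 FPKM, log2 fold change 3.33, adjusted p = 6.19e-05), and CD68, named after its values were seen (2.01, adjusted p = 0.00076). This CD68 is gene ID 103158530, and the CD68 among the paper's selected transcripts is another entry, which is not in the marker list. CD14, the most abundant of them, had 203.5 FPKM in Control and 178.5 in Steatosis (-0.19, adjusted p = 0.186), and AIF1 had 0.90 (adjusted p = 0.00101). The 9 rows of T and NK markers (GZMA has a pair of rows) summed to 34.3 to 61.1 FPKM in Control and 69.1 to 76.8 in Steatosis. NKG7, a granule protein of cytotoxic cells, was the single call (1.36, adjusted p = 6.15e-05), and CD3E and CD2 of T cells had 0.28 and 0.20 (adjusted p = 0.355 and 0.548). The 6 B cell markers summed to 3.56 to 9.23 FPKM in Control and 2.18 to 2.95 in Steatosis, and MS4A1 was called lower (-1.23, adjusted p = 0.00937).

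Control pool 3, the highest Control pool for CORO1A, WAS and ARHGDIB, was also the highest Control pool for the leukocyte, macrophage, T and NK, B cell, neutrophil, platelet and red cell sums. Neutrophil markers summed to 4.28 to 8.11 FPKM in Control and 7.62 to 10.2 in Steatosis. Of 4 tested, 1 was called, CSF3R, the receptor of granulocyte colony-stimulating factor (1.44 to 4.07 FPKM, log2 fold change 1.49, adjusted p = 0.00228). CXCR2 had 0.18, S100A8 -0.17 and S100A9 -0.66 (adjusted p = 0.534, 0.827 and 0.179). MPO and ELANE were at most 0.26 and 0.35 FPKM in any pool and at 0 in some Control pools. S100A9, MPO and ELANE were named after their values were seen. Platelet markers summed to 2.42 to 4.39 and 3.34 to 3.73 FPKM, with GP1BB, likewise named afterwards, listed at 0 in all Control pools. Endothelial markers summed to 46.6 to 55.4 FPKM in Control and 62.1 to 83.9 in Steatosis, without overlap of pools. By limma 0 of 6 were called (3 of 6 had an unadjusted p under 0.05). PECAM1, the most abundant of them, had a log2 fold change of 0.74 (adjusted p = 0.000754) and missed the fold limit. Hepatocyte markers, which show the tissue to be liver, summed to 54065 to 85705 FPKM in Control and 46819 to 57003 in Steatosis, and 0 of 6 were called by limma (3 of 6 had an unadjusted p under 0.05).

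**Figure D5:**
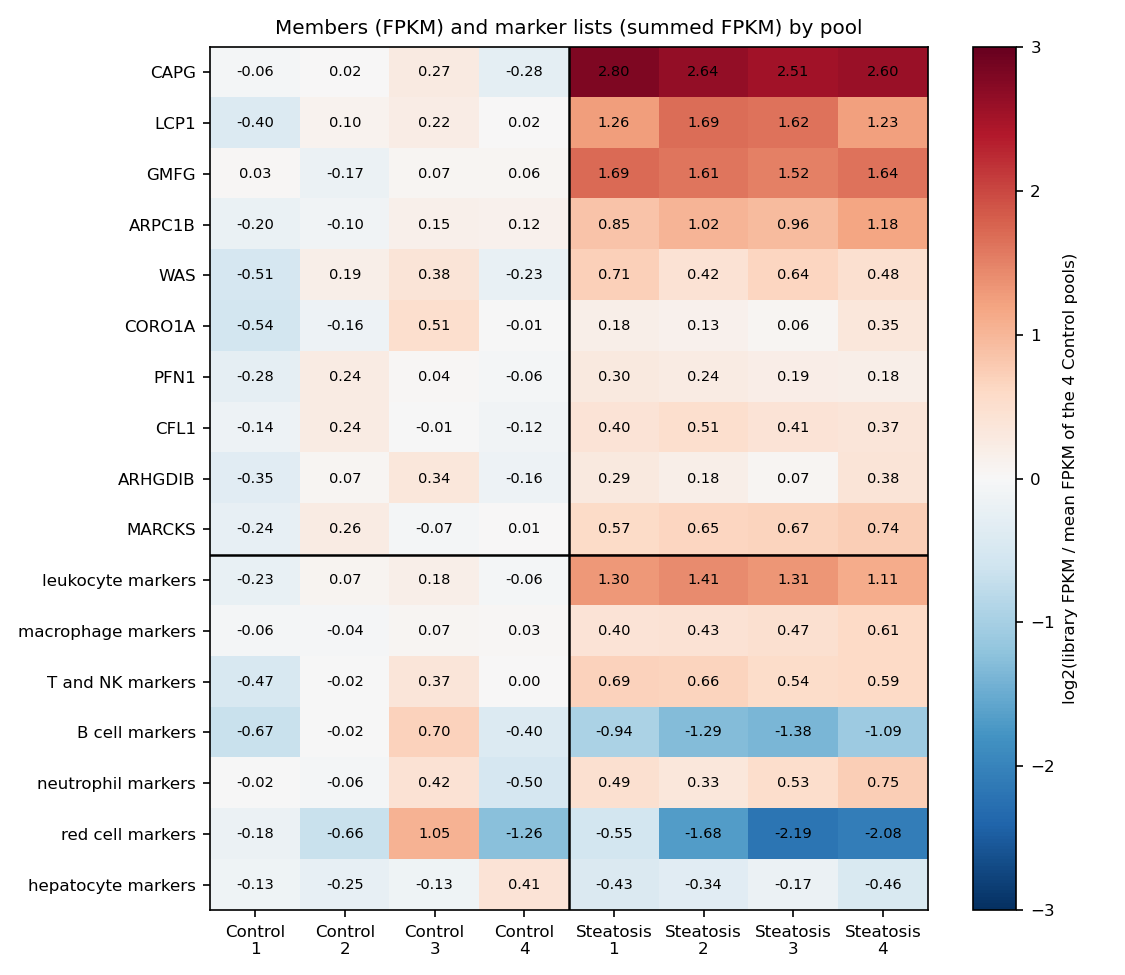
Colour map of log2(FPKM of a pool over the mean FPKM of the 4 Control pools) for the 10 members and, below the line, for summed marker lists, with the value printed in each cell. CAPG (2.51 to 2.80 in Steatosis) stands above all marker sums and GMFG (1.52 to 1.69) above the leukocyte sum (1.11 to 1.41). The sums are weighted to abundant markers, and single markers are not drawn. Of these, MARCO (log2 fold change 3.33) exceeded CAPG (2.61), and SRGN (1.84) exceeded GMFG (1.61). In Control pool 3 CORO1A (0.51), WAS (0.38) and ARHGDIB (0.34) are high together with the T and NK (0.37), B cell (0.70) and red cell (1.05) sums.

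The genes with the profile most like that of the members were found by the root mean square difference between centred log2(FPKM + 0.1) profiles over the 8 libraries, taken against the median profile of the 10. The nearest were CD82 (0.058), RALB (0.059), ABHD11 (0.064), SLC39A1 (0.065) and COMTD1 (0.066). Of the members, MARCKS was as near as these (0.066) and CAPG was the farthest (0.979). CD82, a tetraspanin, was at 17.1 to 23.5 FPKM in Control and 31.6 to 33.8 in Steatosis, and RALB, a small GTPase, at 9.31 to 12.1 and 16.8 to 18.5 FPKM.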

How the data were processed

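Poly-A RNA of 8 liver pools was sequenced as paired reads on the DNBseq platform. Low-quality reads and those with adaptors or unknown bases were removed by the authors, who mapped the rest to Sus scrofa 11.1 with HISAT2 2.0.4, assembled transcripts with StringTie and estimated expression with Bowtie2 2.2.5 and RSEM 1.2.12 (versions from the submitters' processing notes), and deposited FPKM per gene and library. Whether strand was used in counting is not given in the sources used here. The deposited FPKM values were used without further scaling. The authors also deposited 4 comparisons of single pools with fold changes and p-values of their own, which were not used.

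Symbols and IDs came from the file and coordinates from RefSeq for Sscrofa11.1. Genes with at least 0.3 FPKM in 4 or more of the 8 libraries (13175) were fitted with limma 3.58.1 (R 4.3.3, mean-variance trend, group as the only term) on log2(FPKM + 0.1), with Benjamini-Hochberg adjustment over all of them, and were called where the adjusted p was under 0.01 and the log2 fold change above 1 or below -1. This scale understates the change of low genes. The fit was tested on simulated data. Tables were made with Python 3.11.15, numpy 2.4.6 and pandas 2.3.3, and figures with matplotlib 3.10.9. Reads per library were not analysed here. Since no counting error can be taken from FPKM, the error given is the spread (SD) of the pools.

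Whether pools of the same number are pairs was checked, and over the 13175 genes their deviations from their own group mean had correlations of 0.16, 0.35, 0.32 and 0.25, all positive. The reported fit nevertheless had no pairing term. The sources do not say that a number marks the same pigs. The fit with the pool as a block was an alternative, beside median ratio and upper quartile scaling, a pseudocount of 1, no filter, 0.3 FPKM in 7 libraries, an adjusted p of 0.05 without a fold limit, each library left out, and pool 1 of both groups left out.

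The members and all lists were chosen with earlier results of these data known. The text names all members, all tested relatives, the called genes of each other partner list described (at most 6) with the 2 most abundant genes not called, at most 3 abundant markers per list and the 5 nearest profiles. Promoter motifs were to be searched, but no sequences were used here. The values of 1 partner list are not reported here, although its genes are in the counts over all partners.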

Additional observations from a re-analysis of the deposited data

Results flagged for a closer look

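Within each group of 4 pools, the members, their relatives and the other partner genes named were examined for a single pool far from the other 3, by the critical value of Dixon's gap ratio. Of 106 groups 9 passed it, and chance alone passes about 1 group in 20. The 1 member was GMFG, at 15.2 FPKM in Control pool 2 against 17.53 to 17.98 in the other Control pools. Control pool 1, the pool with the most skeletal muscle transcripts, was high for PFN2 (1.31 FPKM against 0.42 to 0.47), TAGLN2 (105.16 against 83.23 to 86.18) and TPM3 (89.9 against 64.54 to 67.98). Control pool 4 was low for CORO1C (5.57 FPKM against 6.25 to 6.32), ARHGEF2 (2.8 against 4.39 to 4.5) and ARHGAP25 (2.47 against 3.46 to 3.57). Steatosis pool 1 was low for CORO1C (6.27 against 7.4 to 7.59) and high for BRK1 (65.99 against 56.23 to 57.57). What set these pools apart was not tested.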

How the results depend on the processing

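The members called were CAPG, GMFG, LCP1 and ARPC1B in the reported setting, and 3 of these, without ARPC1B, under both scalings, a pseudocount of 1, without Control pool 1, without Control pool 2, without Steatosis pool 4 and without pool 1 of both groups. The number of members called was 3 to 4 with each library left out, and 7 at an adjusted p of 0.05 without a fold limit. With the pool number as a block, 4 members and 12 partners were called, and 785 genes higher and 57 lower in all. The block changed no call among the members and partners named. Calls of single markers were not examined in the alternative settings. Partners called higher were 4 under median ratio and 4 under upper quartile scaling, 6 with a pseudocount of 1, 61 (and 1 lower) at an adjusted p of 0.05, and 10 to 16 with a library left out. ARHGEF2 lost its call without Control pool 4 (0.97), and ARHGAP30 without Control pool 1 (0.89), Control pool 4 (0.99), Steatosis pool 2 (0.96) or Steatosis pool 4 (1.01, adjusted p = 0.0107 by limma). Over all genes, 792 higher and 44 lower became 408 and 84 under median ratio scaling, 438 and 74 under upper quartile scaling, 395 and 39 with a pseudocount of 1, and 3519 and 300 at an adjusted p of 0.05. With a library left out they were 573 to 788 higher and 26 to 51 lower (29 without Control pool 2, 28 without Steatosis pool 2 and 26 without Steatosis pool 4). The cause of these shifts was not tested, beyond the scalings moving the median of all genes.

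Among named partners that were not called, the sign turned under median ratio and upper quartile scaling for SVIL (-0.1066 and -0.0692), CORO1C (-0.0398 and -0.0016), ARPC1A (-0.0870 and -0.0483), DSTN (-0.0653 and -0.0265), WASL (-0.1791 and -0.1408), BRK1 (-0.1467 and -0.1079), CTTN (-0.0524 and -0.0138) and ACTG1 (-0.1170 and -0.0781), and under median ratio scaling alone for ACTB (-0.0377) and RHOA (-0.0159). Members whose sign turned were CORO1A under both scalings (-0.0433 and -0.0049), and PFN1 (-0.0357) and ARHGDIB (-0.0193) under median ratio scaling alone. With a library left out, SVIL ranged from -0.0539 (without Control pool 4) to 0.3634, CORO2B from -0.0009 (without Control pool 3) to 0.3814, and CFL2 from -0.2708 to 0.0751 (without Control pool 1), and CFL2 was also above 0 without pool 1 of both groups (0.0908). Pools of 2 pigs, 4 per group, and FPKM without read counts limit what these data resolve.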
